A study of Homo sapiens with 12 samples.

Results

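The HOXA genes HOXA3, HOXA5, HOXA6, HOXA7, HOXA9, HOXA10 and HOXA13, their cofactors MEIS1 and PBX3, and the forkhead gene FOXC1 were followed in 2 acute myeloid leukemia (AML) cell lines treated with honokiol. These 10 genes, of the 36866 in the deposited table, were chosen by symbol with earlier results of these data in view. THP-1 and U-937 cells were kept for 24 h in honokiol or in 0.1% DMSO, the solvent control, and 3 poly(A) RNA libraries per line and treatment were sequenced. Both lines were described in the labels as AML with a complex karyotype, and no genotype was altered. The labels listed honokiol doses of 20 μM and 35 μM without assigning either to a line, so a difference in response between the lines cannot be told apart from a difference in dose. Each line is a single culture-adapted line, and the labels did not state whether the 3 libraries of a group came from separate cultures, so the p-values measure the spread between these libraries, which may be technical.

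HOX genes encode homeodomain transcription factors that lie in clusters and are used along the body axis and in blood formation. In normal marrow the HOXA genes of the middle and the 5′ side of the cluster are active in stem and early progenitor cells and are turned down as myeloid cells mature. HOXA9 binds DNA together with the TALE homeodomain cofactors MEIS1 and PBX3, and sustained HOXA9 and MEIS1 expression is a known feature of AML with fusions of KMT2A or of MLLT10. THP-1 cells are known to carry the KMT2A-MLLT3 fusion and U-937 cells the PICALM-MLLT10 fusion. FOXC1 is a mesenchymal transcription factor that normal blood progenitors hardly express and that is switched on in part of the AML cases with high HOXA expression.

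HOXA9 and HOXA10 do not have separate transcripts only. In GRCh38 the table placed HOXA9 at chr7:27162438-27169737 and HOXA10 at chr7:27170592-27174320, both on the minus strand, with a read-through gene (HOXA10-HOXA9, ENSG00000257184) at chr7:27163535-27180013 across them. In GENCODE 29 its only transcript has 3 exons with 765 exonic bases, of which 397 (51.9%) are also HOXA9 exon and 368 (48.1%) also HOXA10 exon. None of its exonic bases is its own, and HOXA9 and HOXA10 share no exonic base with each other. Its first exon, at chr7:27179646-27180013, belongs to a distal HOXA10 transcript and lies outside the HOXA10 interval of the table. Only the junction from that exon to the exon at chr7:27164878-27164967, over an intron of 14678 bases, belongs to no HOXA9 or HOXA10 transcript. The coding sequence at this junction is shown because it sets the read-through transcript apart. In GENCODE 29 a read that crosses it is the only kind that separates the read-through transcript from the genes it joins. By the HOXA10 interval of the table, a read within the first exon would also fall outside HOXA10. The capitals mark 10 bases on each side of the junction, and the first 3 of them are the start codon.
HOXA10-HOXA9 junction: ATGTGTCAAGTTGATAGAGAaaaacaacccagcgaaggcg
The promoter windows of HOXA9, of the HOXA10 start that the table uses, and of FOXC1 are shown next. HOXA9 and HOXA10 are the genes that the read-through gene joins, and FOXC1 had the largest fitted difference between the lines among the 10 genes. The read-through transcript starts further upstream, with the distal HOXA10 transcript, and that start is not shown. Each is the RefSeq (GRCh38.p14) sequence of the 250 bases before the start, read on the strand of the gene, with CpG dinucleotides in capitals. The windows lie at chr7:27165538-27165787 on the minus strand, chr7:27174321-27174570 on the minus strand and chr6:1609665-1609914 on the plus strand. The HOXA9 window belongs to a start at chr7:27165537, which lies inside the HOXA9 interval of the table and not at its end, 27169737.
HOXA9: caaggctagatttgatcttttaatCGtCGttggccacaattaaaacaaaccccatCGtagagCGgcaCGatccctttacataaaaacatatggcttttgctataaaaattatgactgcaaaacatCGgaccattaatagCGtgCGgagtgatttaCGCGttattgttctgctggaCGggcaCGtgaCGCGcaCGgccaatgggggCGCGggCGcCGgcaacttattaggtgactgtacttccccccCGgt
HOXA10: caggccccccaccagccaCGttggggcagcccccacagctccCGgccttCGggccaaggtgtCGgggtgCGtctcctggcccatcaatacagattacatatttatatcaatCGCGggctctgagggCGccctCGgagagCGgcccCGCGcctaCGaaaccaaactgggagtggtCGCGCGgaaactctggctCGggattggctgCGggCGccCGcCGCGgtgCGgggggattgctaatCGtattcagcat
FOXC1: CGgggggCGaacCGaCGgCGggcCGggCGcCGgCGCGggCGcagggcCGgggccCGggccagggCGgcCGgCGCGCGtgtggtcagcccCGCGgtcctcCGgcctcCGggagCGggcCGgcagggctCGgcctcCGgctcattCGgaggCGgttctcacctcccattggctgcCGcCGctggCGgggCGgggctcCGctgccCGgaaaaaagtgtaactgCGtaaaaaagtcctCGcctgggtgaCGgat
The FOXC1 window had 76.8% G and C with 37 CpG dinucleotides, the HOXA10 window 65.2% with 24 and the HOXA9 window 48.8% with 20. Over 35116 RefSeq promoter windows of this length the medians were 58% and 11 CpG dinucleotides. The 16 windows of 9 of the 10 genes had medians of 59.2% and 19.5 CpG dinucleotides, and HOXA5 had no entry. The letters TGATTNAT, a motif of HOX and PBX dimers searched on both strands, occurred in none of these 16 windows and in 2.48% of all windows. The letters TGACAG, the MEIS motif, occurred in 1 of the 16, 20 bases before a PBX3 start, and in 13% of all windows.

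Of the 11 markers of the myeloid list, all reached an FPKM (the fragments of a gene scaled to its length and to the size of the library) of 0.5 in at least 1 THP-1 library. In U-937 cells 10 did, and MPO, the granule enzyme myeloperoxidase, was below 0.5 in all 6 libraries. Their summed FPKM was 1650 to 2600 in THP-1 cells and 670 to 1272 in U-937 cells. Sums stayed at or below 3.38 for lymphoid, 0.27 for erythroid, 0.75 for fibroblast and 0.11 for epithelial markers, and of the adipocyte list only FABP4 reached 0.5, with sums up to 47.9 after honokiol and up to 2.34 with DMSO. The libraries held 57406966 to 75065752 estimated counts, and a fragment was worth about 4 counts. The share of mitochondrial genes was 13.7% and 12.6% in the first DMSO replicates of the THP-1 and U-937 groups, and 5.61% to 7.55% elsewhere. In these bulk samples, fewer cells with a transcript and less of it per cell cannot be told apart.

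Along the HOXA cluster, the levels formed a low and a high stretch in both lines. With DMSO, the genes from HOXA2 to HOXA7 had mean FPKM values of 0.01 to 2.27 in THP-1 cells and 0.26 to 2.17 in U-937 cells. The 4 genes of the 5′ end, HOXA9, HOXA10, HOXA11 and HOXA13, had means of 7.81 to 11.7 in THP-1 cells and 11.7 to 19.3 in U-937 cells. The plot of the cluster shows that the step lay between HOXA7 and HOXA9 in each line, and the libraries of the 2 stretches did not overlap. Among the 10 genes the highest mean FPKM with DMSO was that of PBX3 in THP-1 cells (19.0 ± 7.62, SD, n = 3) and that of HOXA10 in U-937 cells (19.3 ± 3.97, SD, n = 3). HOXA10, HOXA13 and HOXA9 overlapped in neighbouring pairs in THP-1 cells, and HOXA10, HOXA9 and HOXA13 did so in U-937 cells. HOXA3 was the lowest of the 10 in both lines, with a mean FPKM of 0.26 in THP-1 cells and 0.62 in U-937 cells.

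**Figure D1:**
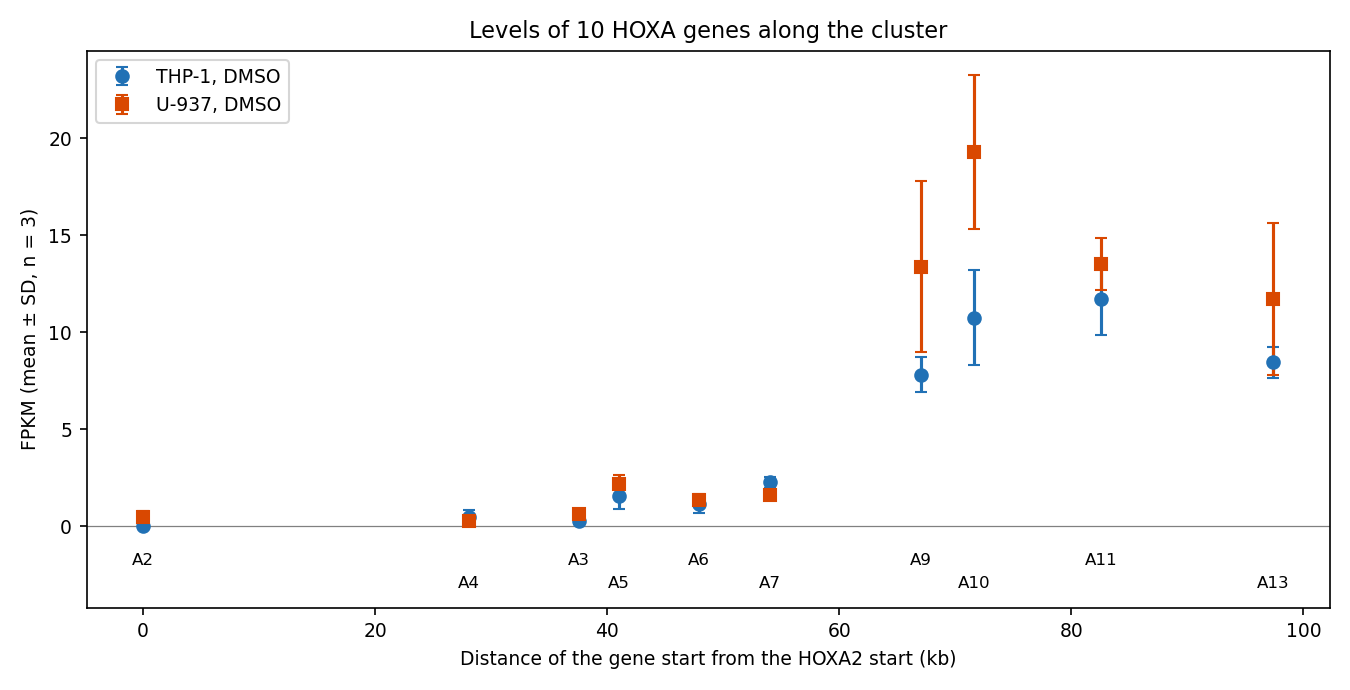
Mean FPKM (± SD, n = 3) of 10 HOXA genes in DMSO-treated THP-1 (blue circles) and U-937 cells (orange squares) against the distance of each gene's start from the HOXA2 start in kb. The genes from HOXA2 to HOXA7 stay at or below 2.27, and HOXA9, HOXA10, HOXA11 and HOXA13 lie between 7.81 and 19.3.

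The lines were then compared without drug, which shows how far the HOXA program of the 2 leukemias differed at the outset. MEIS1, HOXA10 and FOXC1 were higher and PBX3 was lower in U-937 cells, and the other 6 genes did not pass the test. The test was edgeR's quasi-likelihood test on the counts, and a gene was called at a Benjamini-Hochberg adjusted p under 0.05 over the 16283 genes tested, those that reached the limit on low values, an FPKM of 0.5 in at least 3 libraries of the fit. Of the 10 genes, 4 were called, against a background of 52.9% of all genes tested. By this test the share of these genes that differed was not above that of genes in general. Of the 4 called genes 3 were higher in U-937 cells, as were 24.4% of all genes, and 1 was lower, as were 28.5%. The libraries of the lines did not overlap for 4 genes that were higher and 2 that were lower in U-937 cells, against 27.7% and 29% of all genes. With the added limit of an absolute log2 fold change over 1, 3 of the 10 passed against 34% of all genes. The median log2 fold change of the 10 was 0.59, and that of all genes tested was -0.05. FOXC1 is part of these counts and had been chosen for its honokiol responses, which these DMSO libraries entered. The counts that include it are not independent of that choice. The count was 4 without the DMSO libraries of high mitochondrial share.

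FOXC1, at chr6:1609915-1613897, differed most between the lines. Its FPKM was 0.46, 0.69 and 0.59 in the DMSO libraries of THP-1 and 7.40, 6.71 and 5.87 in those of U-937. Every U-937 library was above every THP-1 library. The log2 fold change was 3.48 (SE 0.21, adjusted p = 1.57e-07). These DMSO libraries also entered the honokiol responses for which FOXC1 had been singled out. Its p-value and its place among the called genes are therefore not independent of that choice. PBX3, a TALE cofactor that helps HOXA9 to bind DNA, at chr9:125747345-125967377, showed the opposite order. Its FPKM was 27.80, 15.23 and 14.05 in THP-1 cells and 2.12, 3.19 and 1.10 in U-937 cells. The groups did not overlap, and replicate 1 of THP-1 stood above its other libraries. The log2 fold change was -3.21 (SE 0.45, adjusted p = 8.69e-05). Over the alternatives computed it was -3.60 to -2.77, and that of FOXC1 was 2.73 to 3.60. Which of the 2 genes differed more is therefore not settled.

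MEIS1, the cofactor that joins HOXA9 in leukemic transformation, at chr2:66433452-66573869, had FPKM values of 1.47, 1.72 and 1.63 in THP-1 cells and 3.21, 4.11 and 5.56 in U-937 cells with DMSO. All U-937 libraries were above all THP-1 libraries, with the widest spread in U-937. The log2 fold change was 1.37 (SE 0.20, adjusted p = 9.96e-05). Thus both cofactors were expressed in both lines, with the higher MEIS1 level in U-937 cells and the higher PBX3 level in THP-1 cells.

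HOXA10, which acts in myeloid progenitors, had FPKM values of 7.97, 12.57 and 11.73 in THP-1 cells and 14.72, 21.26 and 21.88 in U-937 cells. The groups did not overlap, and replicate 1 was the lowest library of each line. The log2 fold change was 0.80 (SE 0.25, adjusted p = 0.0188). This call rested on single libraries, since the adjusted p was 0.0714 without replicate 1 of THP-1, 0.0567 without replicate 2 of U-937 and 0.0548 without replicate 3 of U-937. HOXA9, the central leukemic HOX factor, had FPKM values of 8.38, 8.28 and 6.77 in THP-1 cells and 10.80, 10.86 and 18.47 in U-937 cells. The groups did not overlap here either, and replicate 3 of U-937 was far above the other libraries. The log2 fold change was 0.71 (SE 0.30), and the test was not passed (adjusted p = 0.0612). The call was gained with DESeq2 (adjusted p = 0.0452) and with the 6 DMSO libraries alone (adjusted p = 0.0383).

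The other HOXA genes among the 10 were not called. HOXA13, the gene at the 5′ end of the cluster, had FPKM values of 7.70, 9.29 and 8.36 in THP-1 cells and 9.19, 9.71 and 16.22 in U-937 cells. The log2 fold change was 0.42 (adjusted p = 0.158). Its groups overlapped, and replicate 3 of U-937 was again the highest. HOXA7 had FPKM values of 2 to 2.55 in THP-1 cells and 1.51 to 1.77 in U-937 cells, the only HOXA gene among the 10 with a negative log2 fold change (-0.54, adjusted p = 0.0684). HOXA3 (log2 fold change 1.21, adjusted p = 0.0694), HOXA5 (0.46, adjusted p = 0.354) and HOXA6 (0.15, adjusted p = 0.801), which lie on the low stretch, overlapped between the lines. DESeq2 called HOXA3 and HOXA7 as well, so that 7 of the 10 passed with that tool, as did 8972 of all 16283 genes tested. HOXA3 reached 0.5 FPKM in 1 THP-1 library and 5 U-937 libraries, so it passed the limit on low values only through the line where it was higher. The count with DESeq2 is therefore a description. The number of the 10 genes called thus depended on the tool.

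**Figure D2:**
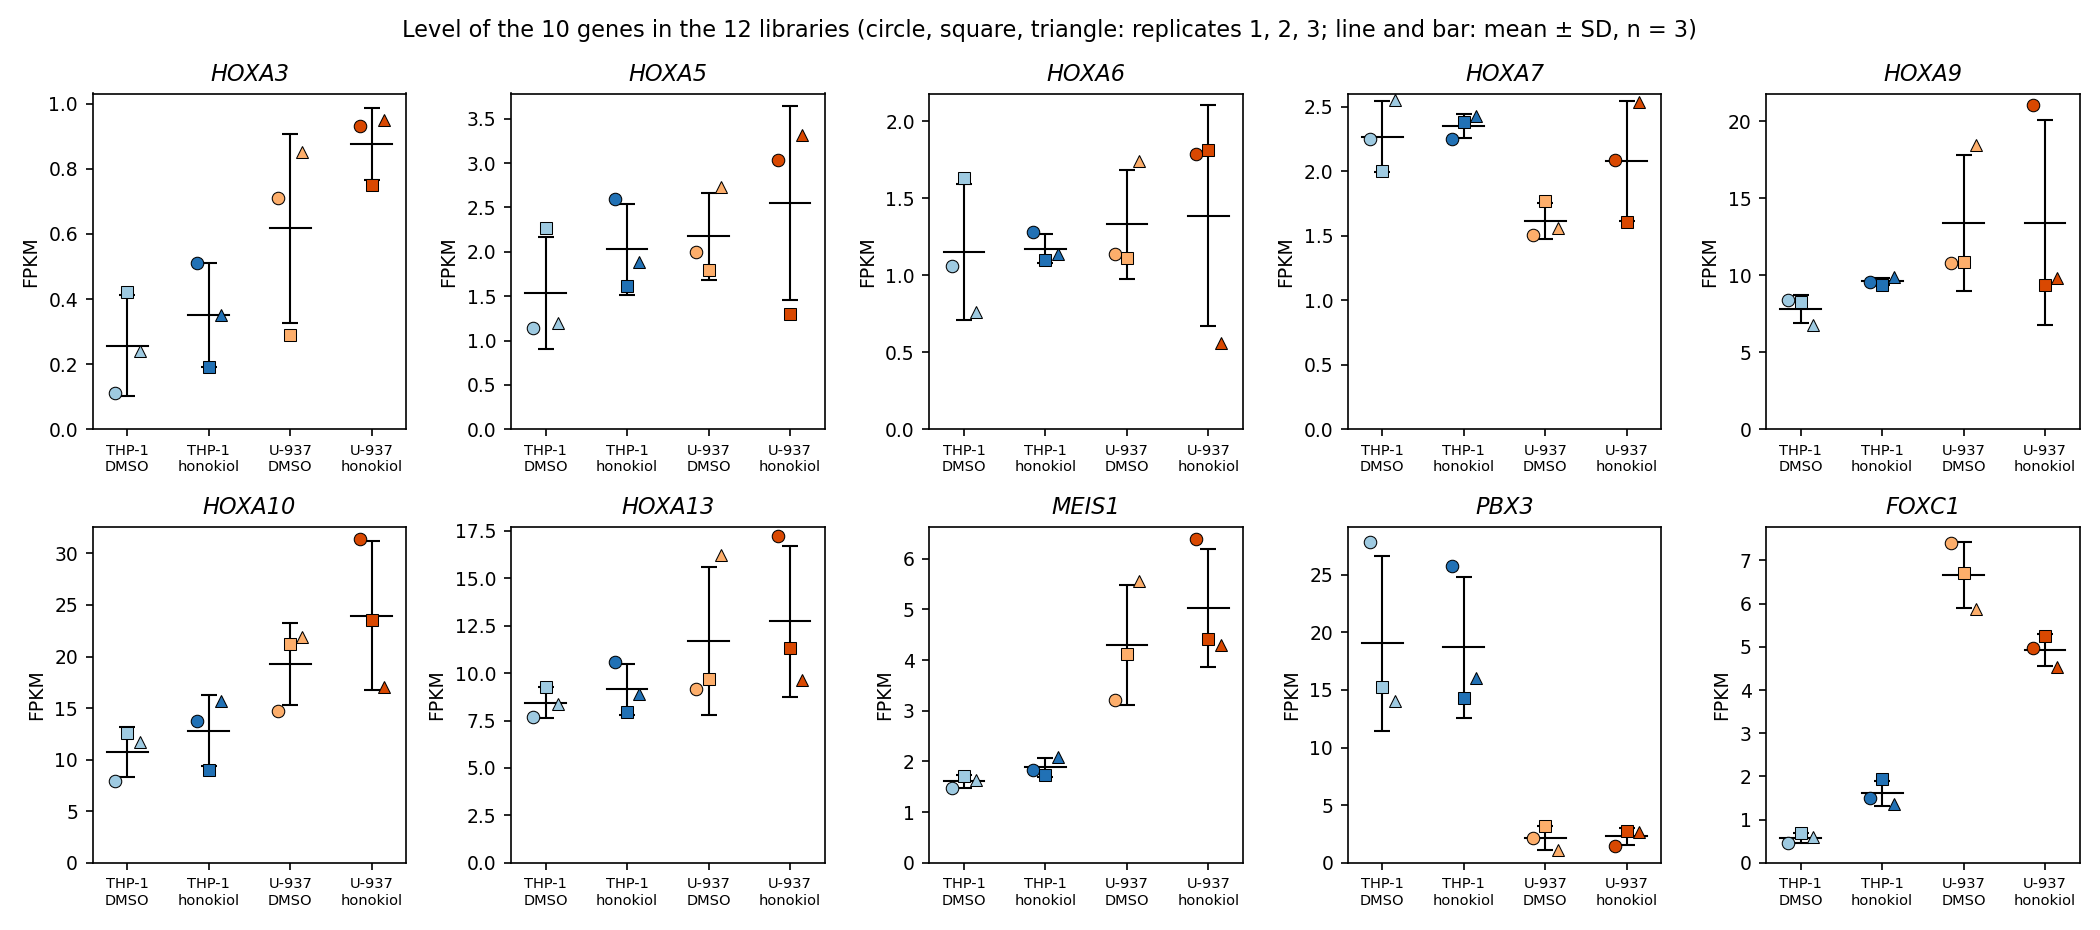
FPKM of each of the 10 genes in the 12 libraries, by line and treatment, with circles, squares and triangles for replicates 1, 2 and 3 and a line and bar for the mean ± SD (n = 3). PBX3 lies between 14.05 and 27.80 in all THP-1 libraries and below 3.2 in all U-937 libraries, and the order is the opposite for MEIS1 and FOXC1.

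The remaining HOX genes set these values in context. Of the 10 HOXA genes shown along the cluster, 2 were called between the lines, against 52.9% of all genes, and the median log2 fold change of the 10 was 0.44. These were HOXA10 and HOXA2, which patterns the hindbrain and passed the limit on low values only through U-937 libraries. The count is therefore a description. The count was 1 without replicate 1 of THP-1 or without replicate 2 or 3 of U-937. HOXA2 had 0, 0 and 6 counts in THP-1 cells and 41, 165 and 69 counts in U-937 cells, and no fold is given against libraries at or near 0. Of the noncoding genes of the cluster, 4 were tested. HOXA11-AS, an antisense RNA at HOXA11, was higher in U-937 cells (log2 fold change 1.09, adjusted p = 0.00595). HOTTIP, a noncoding RNA next to HOXA13 known to support the 5′ HOXA genes, was lower there (log2 fold change -1.18, adjusted p = 0.000994).

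Of the 10 genes of the other HOX clusters that were tested, 5 HOXB genes were lower and 3 HOXC genes were higher in U-937 cells. HOXC4 (log2 fold change 0.51, adjusted p = 0.20) and HOXC6 (0.13, adjusted p = 0.788) were not called. Of the 8 called genes, 7 (HOXC10 excepted) reached the limit on low values only through the line where they were higher, so their count is a description and is not set against the 52.9% of all genes. HOXB3, HOXB4, HOXB6, HOXB7 and HOXB13 had 78 to 558 counts in each THP-1 library with DMSO and 0 counts in each U-937 library with DMSO. Set against a floor of 12 counts (3 fragments) per library, HOXB13 was at least 43.8-fold lower in U-937 cells, HOXB4 at least 39.1-fold, HOXB3 at least 28.7-fold, HOXB7 at least 27.2-fold and HOXB6 at least 7.60-fold. HOXC10 had FPKM values of 1.79, 0.93 and 1.10 in THP-1 cells and 7.47, 8.51 and 8.86 in U-937 cells (log2 fold change 2.62, adjusted p = 7.33e-06). HOXC8 and HOXC9 were higher in U-937 cells as well (adjusted p = 0.000939 and 0.00396), with at most 8 counts in any THP-1 library with DMSO. The fitted median log2 fold change of the 10 genes was -4.73, or -1.40 with the HOXB genes at these bounds.

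Of the TALE cofactors, 6 of 9 tested genes were called (52.9% of all genes were), with a median log2 fold change of -0.04. Besides MEIS1 and PBX3, PKNOX1 was higher in U-937 cells (log2 fold change 1.40, adjusted p = 0.000112), and MEIS2 (-1.35, adjusted p = 9.51e-05), MEIS3 (-1.01, adjusted p = 0.0241) and PBX2 (-0.78, adjusted p = 0.000734) were lower. Of the chromatin regulators known to act upstream of the HOXA cluster, 9 of 19 were called, a share below the 52.9% of all genes, with a median of 0.03. MLLT10 (-1.80, adjusted p = 5.94e-05), MLLT3 (-1.68, adjusted p = 2.68e-05), AFF4 (-1.66, adjusted p = 1.68e-05) and the polycomb subunit SUZ12 (-0.99, adjusted p = 0.000666) were lower in U-937 cells. The elongation factors MLLT1 (0.88, adjusted p = 2.26e-05) and CDK9 (0.70, adjusted p = 0.000312) were higher. MEIS2, MEIS3 and MLLT3 reached the limit on low values in THP-1 cells and would not have reached it in U-937 cells alone. The counts of both lists are therefore descriptions. MLLT3 and MLLT10 are fusion partners in these lines, and a count per gene does not separate fused from unfused transcripts.

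Of the 16 genes reported downstream of HOXA9, HOXA10 and MEIS1, 11 were called, 5 higher and 6 lower in U-937 cells, with a median log2 fold change of -0.25. Of all genes, 24.4% were called higher and 28.5% lower. MEF2C and FLT3 reached the limit on low values only through THP-1 libraries and ERG only through U-937 libraries, so the count is a description. MEF2C, a transcription factor of progenitors, had FPKM values of 9.31, 5.61 and 7.80 in THP-1 cells and 0.30, 0.42 and 0.38 in U-937 cells (log2 fold change -4.41, adjusted p = 6.08e-08). The receptor kinase FLT3 was also lower (-4.27, adjusted p = 0.00031), as was the oxidase subunit CYBB (-2.36, adjusted p = 9.33e-05). The pseudokinase TRIB2 (3.49, adjusted p = 7.46e-07) and the kinase PIM1 (3.28, adjusted p = 3.59e-06) were higher. ERG, an ETS factor of stem cells, had 0, 4 and 0 counts in THP-1 cells and 469, 423 and 370 in U-937 cells (adjusted p = 8.58e-05). Next to FOXC1 on chromosome 6, GMDS was also higher in U-937 cells (log2 fold change 2.21, adjusted p = 4.91e-06), and KLF4, a monocytic factor that FOXC1 is reported to oppose, was lower (-1.04, adjusted p = 0.0281). In these libraries the myeloid markers differed as well, with 10 of 11 called, 8 of them lower in U-937 cells. Among all genes 52.9% were called and 28.5% were lower. MPO reached the limit on low values only through THP-1 libraries, so the marker count is a description. The part of the markers in these differences was not tested.

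**Figure D3:**
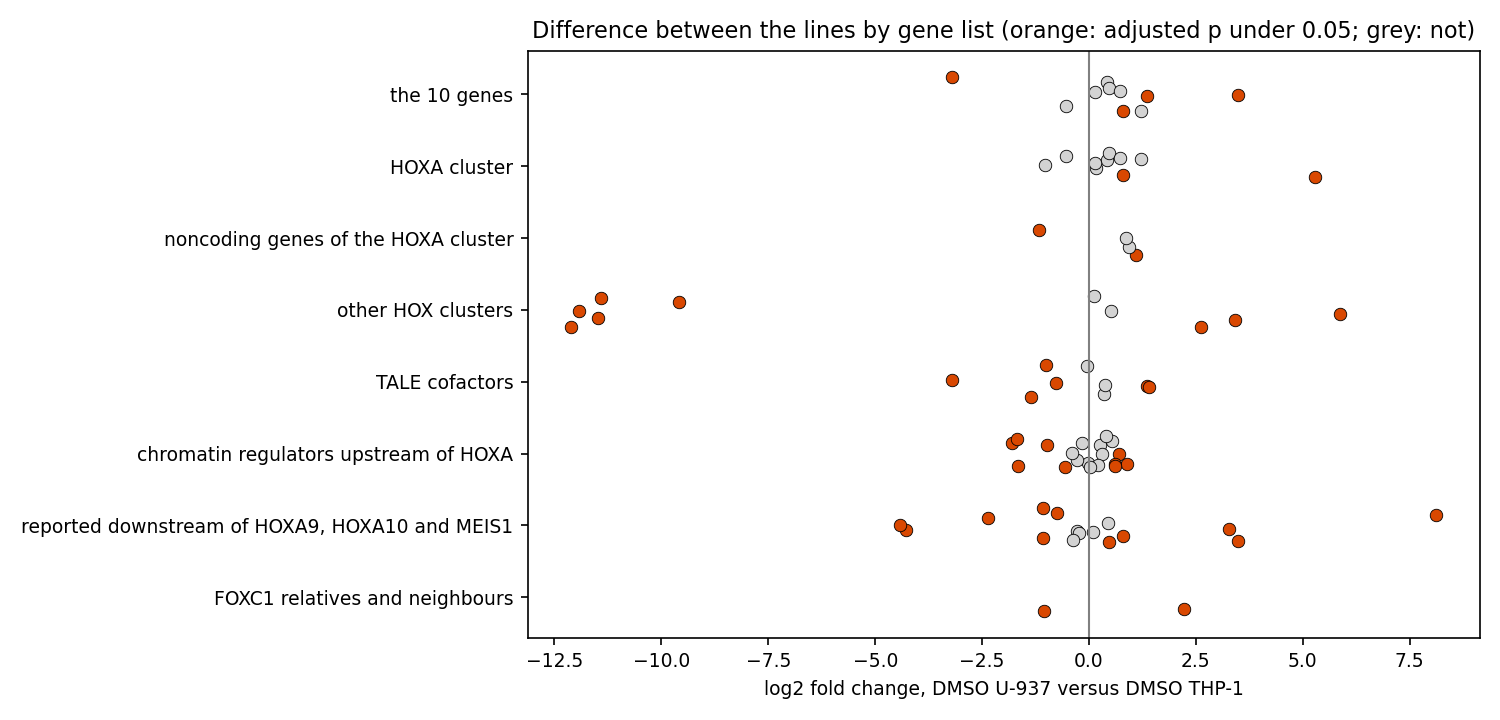
log2 fold change between DMSO-treated U-937 and DMSO-treated THP-1 cells for each tested gene of the 8 lists, with called genes (adjusted p under 0.05) in orange and the others in grey, spread vertically only to be visible. The 5 HOXB genes at the far left had 0 counts in U-937 libraries with DMSO, so their fitted values are not measured folds, and the HOXA genes lie closer to 0 except HOXA2.

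Honokiol was next compared with DMSO within each line, which asks whether 24 h of the drug moved the HOXA program. None of the HOXA genes, MEIS1 or PBX3 passed the test in either line. In THP-1 cells 8 of these 9 genes were tested, since HOXA3 was below the limit, and 0 were called by edgeR, against a background of 0.0411% of the 14600 genes tested. Their log2 fold changes ran from -0.10 to 0.36 with a median of 0.12, and the lowest adjusted p was 0.534. In U-937 cells all 9 were tested and 0 were called, against 0.0947% of 13726 genes. Their log2 fold changes ran from -0.07 to 0.43 with a median of 0.15, and the lowest adjusted p was 0.614. At an unadjusted p under 0.05 the counts were 0 and 0, and DESeq2 and limma called 0 of these genes in either line. With so few calls among all genes, these tests do not show that the levels were equal.

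HOXA9 and MEIS1 were the genes whose THP-1 libraries separated by treatment. HOXA9 had FPKM values of 8.38, 8.28 and 6.77 with DMSO and 9.58, 9.38 and 9.87 after honokiol. All honokiol libraries were higher, by a log2 fold change of 0.24 (SE 0.16, adjusted p = 0.534). MEIS1 had 1.47, 1.72 and 1.63 with DMSO and 1.83, 1.73 and 2.09 with honokiol, again without overlap, and a log2 fold change of 0.18 (SE 0.15, adjusted p = 0.616). Such separation upwards was seen in 13% of all genes tested in THP-1 cells, and in 2 of these 8. In U-937 cells no gene of the 9 separated, against 24.2% of all genes in either direction.

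HOXA10 had FPKM values of 13.71, 9 and 15.71 in honokiol-treated THP-1 cells and 31.39, 23.50 and 17.04 in honokiol-treated U-937 cells, which overlapped the DMSO values of each line. Its log2 fold change was 0.21 (SE 0.23) in THP-1 cells and 0.23 (SE 0.23) in U-937 cells. PBX3 had 25.71, 14.34 and 16.06 in honokiol-treated THP-1 cells and 1.43, 2.75 and 2.67 in honokiol-treated U-937 cells. Its log2 fold changes were -0.10 (SE 0.34) and -0.0019 (SE 0.40), and replicate 1 was the highest THP-1 library with either treatment. HOXA3, HOXA5, HOXA6, HOXA7 and HOXA13 overlapped between treatments in both lines. The difference of the responses between the lines was tested in 1 fit of the 12 libraries, and it was called for 0 of the 9 genes, against 0.111% of 16283 genes. The lowest adjusted p was 0.869, no gene of the 9 had an unadjusted p under 0.05 (9.37% of all genes did), and DESeq2 and limma called none.

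In U-937 cells 2 libraries, DMSO replicate 3 and honokiol replicate 1, stood apart for several of these genes. HOXA9 had 18.47 and 21.09 FPKM in them and 9.34 to 10.86 in the other 4 libraries of the line. HOXA13 had 16.22 and 17.23 in them and 9.19 to 11.33 in the others, and MEIS1 had 5.56 and 6.38 against 3.21 to 4.42. PBX3 was lowest in the same 2 libraries, at 1.10 and 1.43 against 2.12 to 3.19. Since they belong to different treatments, they widened the spread of both groups. Without this pair the treatment calls among the 9 genes stayed at 0 in U-937 cells, and HOXA9 passed the test between the lines (adjusted p = 0.039), so that 5 of the 10 genes were called. The pair was picked for its high HOXA9 after seeing the data. This HOXA9 call is therefore a description and no support for a difference.

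**Figure D4:**
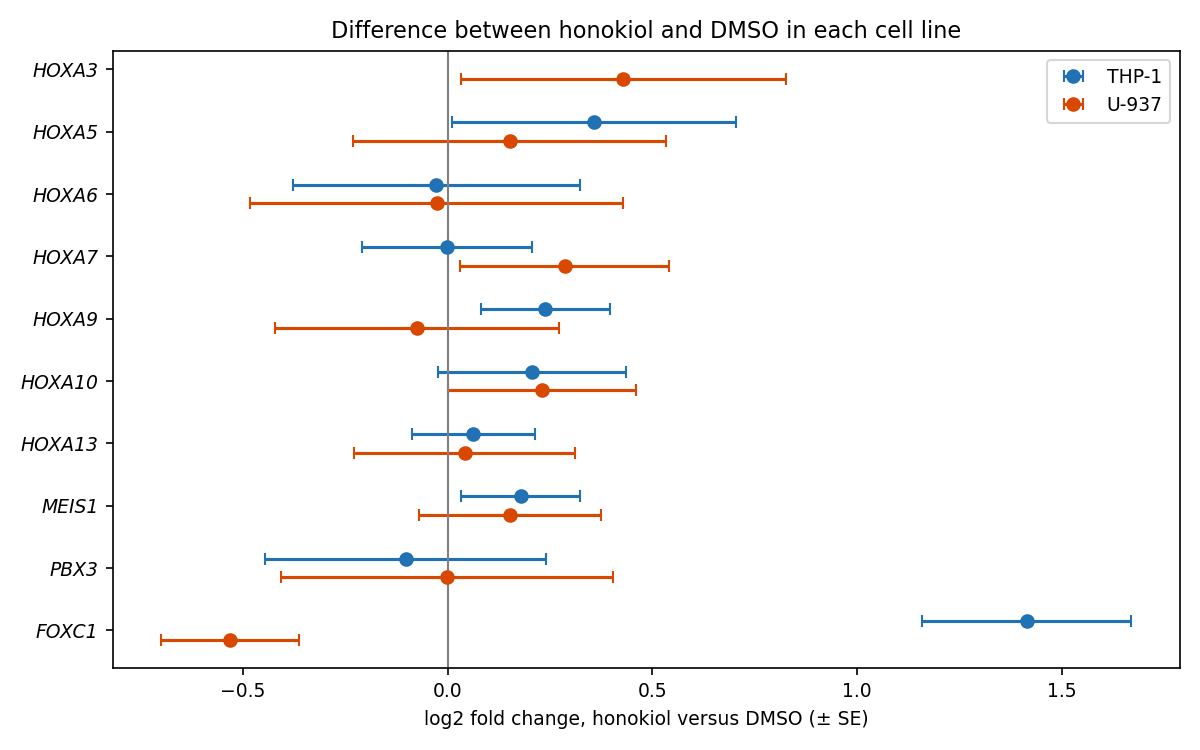
log2 fold change of honokiol versus DMSO (point) with its SE (bar) for the 10 genes in THP-1 (blue) and U-937 cells (orange), with HOXA3 not tested in THP-1. The values of the HOXA genes, MEIS1 and PBX3 lie between -0.10 and 0.43, and those of FOXC1 are 1.41 in THP-1 cells and -0.53 in U-937 cells.

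FOXC1 had been singled out for its opposite values in the 2 lines, so its response is described here without a test. Its FPKM was 0.46, 0.69 and 0.59 with DMSO and 1.51, 1.94 and 1.37 with honokiol in THP-1 cells. All 3 honokiol libraries were higher, with a log2 fold change of 1.41 (SE 0.26). In U-937 cells it was 7.40, 6.71 and 5.87 with DMSO and 4.98, 5.26 and 4.53 with honokiol. All 3 honokiol libraries were lower, with a log2 fold change of -0.53 (SE 0.17). The difference between the lines was -1.96 (SE 0.28) on the log2 scale, and the U-937 level stayed above the THP-1 level in every library. Over the alternatives computed, the log2 fold change was 0.96 to 1.53 in THP-1 cells and -0.65 to -0.40 in U-937 cells. FOXC1 overlapped no other gene of the table.

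The locus of the read-through gene gave the other contrast between treatments. Its estimated counts were 41, 72 and 58 in DMSO-treated THP-1 cells and 0, 1 and 0 in honokiol-treated THP-1 cells. The honokiol libraries thus held less than the worth of 1 fragment together, and no fold is given. The gene reached the limit on low values only through the 3 DMSO libraries, the group where it was high, so its call as lower by edgeR (adjusted p = 0.0458) follows in part from that limit and is given as a description. It lost the call with no filter on low genes (adjusted p = 0.109), with counts divided by 4 (0.0675), with limma on FPKM (0.0903 and 0.0973), with the replicate number as a block (0.175), and without honokiol replicate 2 (0.194) or 3 (0.243), and it fell below the filter without any 1 of the DMSO libraries. Over the alternatives that tested it in THP-1 cells, the adjusted p ran from 5.79e-06 to 0.243, so the call depended on the setting. In U-937 cells the counts were 50, 177 and 402 with DMSO and 952, 174 and 236 with honokiol. These overlapped, and the test was not passed (log2 fold change 1.19, adjusted p = 0.486). The difference of responses between the lines was not called by edgeR for this gene (adjusted p = 0.0687). Over the alternatives its adjusted p ran from 2.89e-05 to 0.327, and it rests on the same THP-1 libraries at or near 0.

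The read-through gene was a small part of the locus. Its share of the summed counts of HOXA9, HOXA10 and itself was 1% to 1.33% in DMSO-treated THP-1 cells and 0% to 0.0195% with honokiol. In U-937 cells the share was 0.842% to 3.66% with DMSO and 2.13% to 6.82% with honokiol, highest in the 2 libraries named above, which also had the highest HOXA9. The sum over the 3 genes was 76.0 ± 10.6 CPM (counts scaled to the library total) in the DMSO group and 90.7 ± 16.1 in the honokiol group of THP-1 cells, and 136 ± 32.9 and 161 ± 60.4 in those of U-937 cells (SD, n = 3). The groups of each line overlapped in this sum. In GENCODE every exonic base of the read-through gene is also annotated to HOXA9 or HOXA10. By the table's interval its first exon lies outside HOXA10, so reads there may have been counted to the read-through gene alone. The split of counts among the 3 genes is therefore uncertain, and their sum is given beside it for that reason. HOXA10-AS also overlaps HOXA9 and HOXA10 on the opposite strand, and whether strand was used in counting was not stated.

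**Figure D5:**
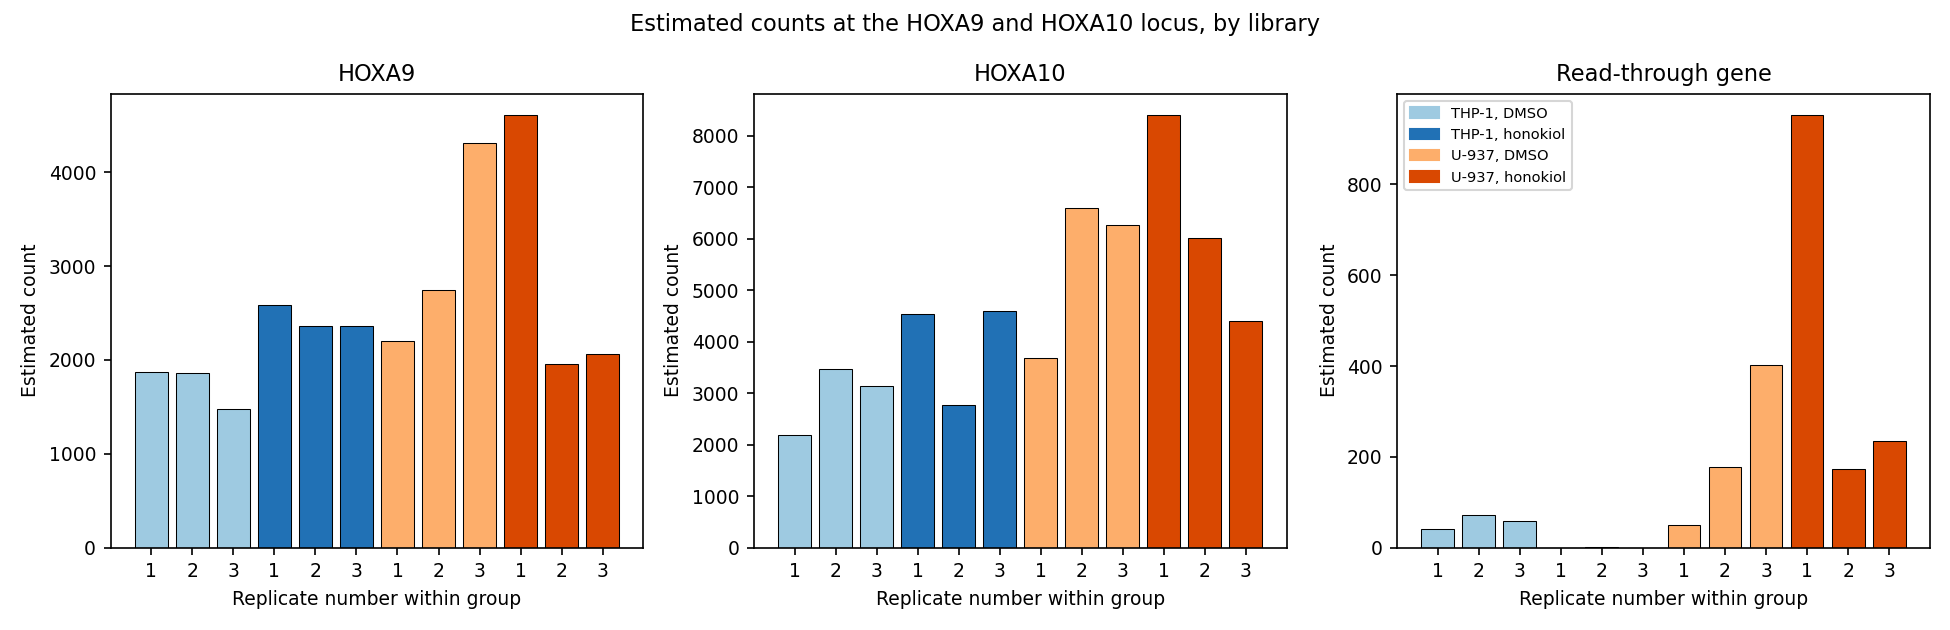
Estimated counts of HOXA9, HOXA10 and the read-through gene in each of the 12 libraries, as bars by replicate number within the 4 groups (colours), each panel with its own axis from 0. The read-through gene has 0, 1 and 0 counts in honokiol-treated THP-1 cells and up to 952 in honokiol-treated U-937 cells, in the library where HOXA9 is also highest.

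No gene of the lists of HOXA genes, noncoding genes of the cluster tested by symbol, other HOX genes, TALE cofactors, chromatin regulators, reported downstream genes or FOXC1 neighbours was called by edgeR after honokiol in either line. At an unadjusted p under 0.05, 6 of 15 reported downstream genes passed in THP-1 cells and 6 of 14 in U-937 cells, where 13.1% and 16.7% of all genes did. The counts were 3 of 9 and 1 of 7 for the TALE cofactors, 2 of 19 and 5 of 18 for the chromatin regulators and 1 of 8 and 0 of 5 for the other HOX genes, and 0 for the remaining lists. DESeq2 called KMT2A, BCL2 and CCND3 in THP-1 cells and AFF1, MLLT1 and MYB in U-937 cells, whereas limma called none. Over all genes DESeq2 called 505 of 14600 in THP-1 cells and 790 of 13726 in U-937 cells.

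The genes whose levels ran most like those of 3 of the 10 were sought among 14055 genes over the 12 libraries. The 10 genes themselves, the read-through gene and genes with clone-type or LINC names were left out beforehand. Another of the 10 could therefore rank above the genes named here. Among the genes compared, HOXA9 was most like CDCA7L (Pearson r of log2 FPKM 0.92), NEK3 (0.91) and ENTR1 (0.89), and 2 of them exceeded 0.9. MEIS1 was most like PSMA8 (0.99), SLC43A1 (0.99) and HAR1A (0.98), and FOXC1 was most like POLR3D (0.99), SUV39H1 (0.98) and GTPBP3 (0.97). For MEIS1 1195 genes and for FOXC1 1002 genes exceeded 0.9 over libraries that fall into 2 lines, so these 12 points are not independent. These values are descriptions without a test.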

How the data were processed

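Per the labels, poly(A) RNA of the THP-1 and U-937 lines was sequenced in paired-end libraries, 3 per line and treatment. The authors deposited an estimated count and an FPKM value (fragments scaled to gene length and library size) for each gene and library in 1 table of the whole series. The submitters' processing notes list Bowtie 0.12.2, HISAT2 2.0, StringTie 1.3.0 and the mouse build mm8. The coordinates are those of GRCh38, since 79.6% of gene starts and 71.1% of gene ends equal GENCODE 29 for the 35762 genes found in it. The deposited counts are not normalized, and the value 4 is far more frequent than 3 or 5 (17264, 6764 and 4016 times), so that 1 fragment equals about 4 counts, which gives 14351742 to 18766438 fragments per library. Intervals of such counts are not given.

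The counts were tested by edgeR 4.0.16 (R 4.3.3) with TMM normalization, the quasi-likelihood test and Benjamini-Hochberg adjustment, on genes whose FPKM reached 0.5 in 3 or more libraries of the fit. Honokiol and DMSO libraries were compared line by line, and the lines and the difference of responses in 1 fit of the 12 libraries. Tests were two-sided. On simulated counts with 200 changed genes, 107 were called for THP-1 (14600 genes), 123 for U-937 (13726 genes), 108 for the lines and 62 for the difference of responses (16283 genes each). Calls among the unchanged genes were 12, 15, 4 and 7, in that order. Except for the lines, these made up more than the 5% of calls that the threshold allows. For the lines, the changed genes were far fewer than the 52.9% called in the data, so that simulation does not resemble them. The planted log2 fold changes were 1 or more in size, above those of the HOXA genes, MEIS1 and PBX3 after honokiol. Changes as small as theirs were thus not simulated. Alternatives were RLE size factors, no filter, DESeq2 1.42.0, limma 3.58.1 on log2(FPKM + 0.5) and log2(FPKM + 0.1), counts divided by 4, other sets of libraries, a replicate block and each library left out. Leaving out the DMSO libraries of high mitochondrial share, or the pair of U-937 libraries of high HOXA9, was chosen after seeing the data. The 10 genes and all lists were chosen with earlier results of these data known. Named beside the 10 were the called genes of each list, up to 6 with the largest fold change, the HOXA genes of the locus, and 3 genes most like HOXA9, MEIS1 and FOXC1. The read-through gene was matched by its ID. Raw reads were not used here, and 1 gene of the HOXA list is not reported.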

Additional observations from a re-analysis of the deposited data

Results flagged for a closer look

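FOXC1 is given here because all 3 honokiol libraries were above all 3 DMSO libraries in THP-1 cells and below them in U-937 cells, a difference of -1.96 between the log2 fold changes. This difference was not tested, since the gene had been chosen for it.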

How the results depend on the processing

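The counts of called genes among the 10 and among the 10 HOXA genes of the cluster stayed within 1.5 times under the alternatives run, other than leaving out single libraries, except DESeq2 between the lines, which called 7 of the 10 genes and 5 of the HOXA genes, and the cause was not tested. With each library left out, 3 to 5 of the 10 genes and 1 to 3 of the HOXA genes, against 2 with all libraries, were called between the lines, and the counts for honokiol in either line and for the difference of responses were 0. FOXC1, MEIS1 and PBX3 kept their direction and their calls between the lines under all alternatives run. All the values below missed the threshold before and after they changed sign, and the cause was not tested. In THP-1 cells the log2 fold changes of opposite sign were HOXA6 0.053 and HOXA7 0.049 with limma on log2(FPKM + 0.5), HOXA6 0.084 and HOXA7 0.058 with limma on log2(FPKM + 0.1), HOXA6 0.033 and HOXA7 0.0062 with the replicate block, HOXA7 0.0023 with counts divided by 4, HOXA7 0.042 and PBX3 0.35 with the DMSO libraries of high mitochondrial share left out. With each library left out the ranges were HOXA6 -0.26 to 0.27, HOXA7 -0.10 to 0.060, HOXA13 -0.060 to 0.16, PBX3 -0.41 to 0.35. In U-937 cells the log2 fold changes of opposite sign were HOXA13 -0.085 and MEIS1 -0.00059 and PBX3 0.016 with the DMSO libraries of high mitochondrial share left out, PBX3 0.12 with limma on log2(FPKM + 0.5), PBX3 0.15 with limma on log2(FPKM + 0.1), PBX3 0.059 with the replicate block. With each library left out the ranges were HOXA5 -0.093 to 0.48, HOXA6 -0.26 to 0.34, HOXA9 -0.56 to 0.18, HOXA10 -0.013 to 0.42, HOXA13 -0.24 to 0.30, MEIS1 -0.055 to 0.34, PBX3 -0.33 to 0.38. Between the lines the log2 fold changes of opposite sign included HOXA6 -0.042 with the U-937 pair of high HOXA9 left out. With each library left out the ranges were HOXA6 -0.10 to 0.43. For the difference of responses the log2 fold changes of opposite sign were HOXA3 -0.00030 with RLE size factors, HOXA3 -0.00058 with DESeq2, HOXA6 0.00073 with counts divided by 4, HOXA10 -0.16 with the U-937 pair of high HOXA9 left out, HOXA13 0.018 and MEIS1 0.039 with limma on log2(FPKM + 0.5), HOXA13 0.018 and MEIS1 0.021 with limma on log2(FPKM + 0.1), PBX3 -0.34 with the DMSO libraries of high mitochondrial share left out. With each library left out the ranges were HOXA3 -0.53 to 0.39, HOXA5 -0.58 to 0.10, HOXA6 -0.30 to 0.36, HOXA10 -0.23 to 0.20, HOXA13 -0.31 to 0.23, MEIS1 -0.25 to 0.15, PBX3 -0.36 to 0.48. Same-numbered libraries correlated at -0.155 to 0.113 in their deviations from the group means. This gave no sign that the numbers pair the samples, though 3 libraries per group cannot settle it. In U-937 cells each library correlated best with a library of another number and treatment (0.161 to 0.188). In THP-1 cells DMSO replicate 2 went with honokiol replicate 1 (0.198) and DMSO replicate 1 with honokiol replicate 2 (0.146). The THP-1 libraries numbered 3 correlated at 0.0936. These hints from the data were used in no fit. The replicate block left the count of called genes among the 10 at 4 between the lines and at 0 for the other comparisons. Over all genes the block called 0 in THP-1, 0 in U-937 and 8348 between the lines, against 6, 13 and 8610 without it, and DESeq2 called 505, 790 and 8972. At the depth of these libraries the counts of HOXA3, and of the read-through gene in THP-1 cells, were few, with 36 to 199 for HOXA3 in THP-1 cells.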
